A study of Hordeum vulgare with 18 samples.

Results

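Low and high nitrate supply were compared in leaves of Laanaceur (M4), a Moroccan winter-type barley variety. The comparison rests on 6 of the 18 libraries of the study, chosen by their titles: M4 LN (low nitrate, 0.5 mM, replicates 1, 3 and 4) and M4 HN (high nitrate, 5 mM, replicates 1, 2 and 4). Both groups are wild type for the labels, and they differ in the nitrate solution. Golden Promise (GP, a spring barley used widely in genomics) and Oussama (M5, a further Moroccan variety) were grown under the same supplies, with 6 libraries each, and are used here where the response of M4 is set against theirs. Each library holds poly(A) RNA from the leaf of 1 or 2 plants at the stage that the methods place 14 days after sowing. The date labels hold 1 harvest date per replicate number, and the time from planting to harvest that they give is 14 days for replicate 1, 21 for replicate 2, 147 for replicate 3 and 168 for replicate 4. By their titles, replicates 1 and 4 therefore form 2 LN and HN pairs of the same date. LN replicate 3 and HN replicate 2 have no partner. For these 2 libraries, supply and date cannot be told apart.

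The library titled M4 HN replicate 4 carries a treatment label of 0.5 mM nitrate, the LN value. It was kept in the group of its title, and some of the results that rest on it are also given without it. These are some of the counts at a p threshold, the median log2 FCs of the gene lists and some single-gene fits. The genes that the study marks as higher under LN in M4 are among them. Counts of genes without overlap between LN and HN, and comparisons of library pairs that use it, are given with it only. The same holds for the spread under HN and the comparison of levels with other genotypes.

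Nitrate is the main form of nitrogen taken up by barley roots and is also a signal that sets transcript levels. When supply falls, plants raise transporters of the high-affinity NRT2 family, release nitrogen from older leaves through senescence, and lower the transcripts of nitrate-induced genes of transport, carbon skeleton supply and regulation. Jasmonate signaling, iron storage and the aspartate-derived amino acids, lysine among them, are further processes that nitrogen status touches.

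Libraries of M4 held 24675357 to 28308519 reads in total under LN and 18961060 to 29116744 under HN, of which 18881571 to 21640432 (LN) and 14633067 to 22281661 (HN) fell on the sense strand of genes. At this depth, 3 reads correspond to 0.134 to 0.209 CPM, the read count of a gene scaled to the size of its library. Marker genes of GP (25 genes) and of M5 (19 genes) were at 0.244% or less of their own level in each M4 library. These markers were chosen for a mean under 0.05 CPM in the other genotypes, with the M4 libraries included. Their low level in M4 therefore follows from the choice and cannot show whether M4 libraries hold transcripts of other genotypes. The leaf label was not checked against leaf markers, since no table in hand annotates these gene identifiers. The digit after HORVU in an identifier names the chromosome in the Morex annotation, and coordinates were not analysed here. In whole leaves, fewer cells of a type and less RNA per cell cannot be told apart.

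Transcript levels in M4 leaves differed little between LN and HN against the spread between libraries. The edgeR quasi-likelihood test, fitted on all 18 libraries with replicate number as a block, called 0 of 19021 genes (0%) at an adjusted p under 0.05, and the lowest adjusted p was 0.617. At an unadjusted p under 0.05, 762 genes (4.01%) had a higher level under LN and 720 (3.79%) a lower one. All LN libraries exceeded all HN libraries for 1362 genes (7.16%) and fell short of them for 1272 genes (6.69%). The unadjusted count, 1482 in both directions, moved with single libraries, to 848 without HN replicate 2 and to 2359 without LN replicate 4. The edgeR likelihood ratio test called 6 genes, all higher under LN, DESeq2 called 21 (17 higher) and limma-voom 0, and 4 genes were shared by the first pair of tools. Of the 6 genes of the likelihood ratio test, 4 had a mean under 1 CPM and 3 had no read in any HN library. Of the 21 genes of DESeq2, 8 had a mean under 1 CPM, 5 had no read in any HN library and 16 had separate groups.

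A group of genes for nitrate and phosphate transport, jasmonate signaling, metal handling and senescence had more transcript in each M4 LN library than in any M4 HN library. These genes belong to a list of 19 genes, which the study chose on these same libraries as higher under LN and of which 13 are marked for M4. The count of 13 and its direction are therefore a description and not independent evidence. All 13 were tested. Their fitted log2 fold change (log2 FC, LN over HN) was above 0 for 13 of 13, with a median of 1.32 and a range of 0.73 to 2.79, against a median of -0.01 over all genes tested. Groups were separate, with LN on top, for 13 of 13, where 7.16% of all genes were. An unadjusted p under 0.05 was found for 10, against 4.01% of all genes, and edgeR's quasi-likelihood test called 0 (adjusted p 0.617 to 0.787). The likelihood ratio test called 1 of the 13 and DESeq2 called 2. By edgeR's quasi-likelihood test, the unadjusted count was 6 without LN replicate 1 and 12 without the replicate block. With the 6 M4 libraries alone it was 13, with or without that block, and 0 were called.

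HvNRT2.10 (HORVU7Hr1G098550), annotated as a nitrate transporter, showed the largest log2 FC of the 13. It had 21.6, 36.0 and 8.99 CPM in LN replicates 1, 3 and 4, against 3.02, 3.54 and 3.69 CPM in HN replicates 1, 2 and 4, and values below follow the same order of replicates. The HN libraries lay close together, and LN replicate 4 was the lowest of the LN libraries at more than the level of any HN library. The fitted log2 FC was 2.79 (SE 0.85), equal to a 6.93-fold higher level, with an unadjusted p of 0.00609 and an adjusted p of 0.617 in edgeR's quasi-likelihood test.

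**Figure D1:**
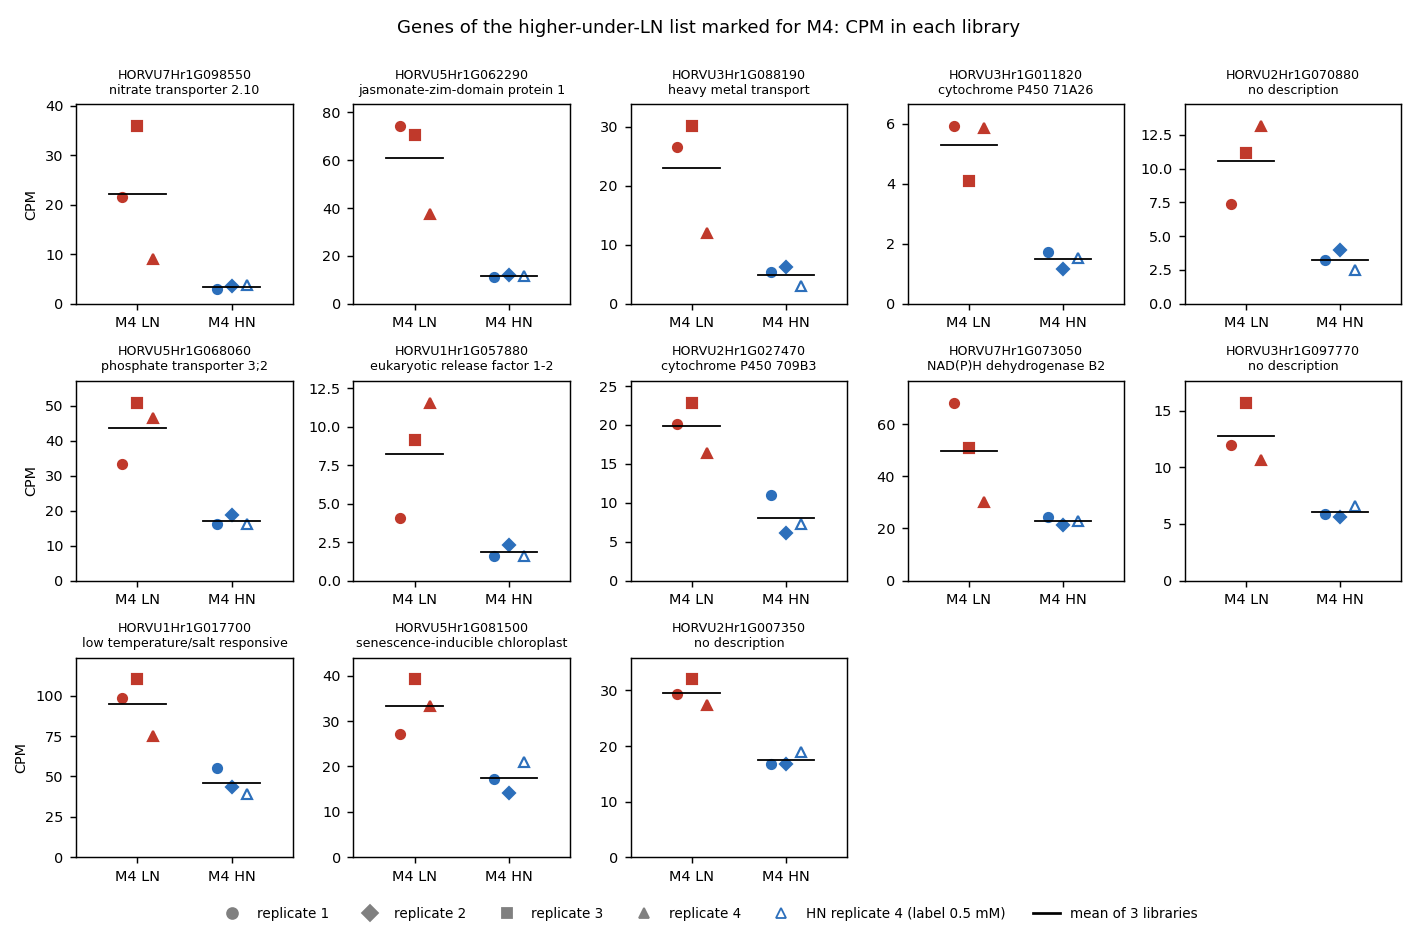
CPM of the 13 genes of the higher-under-LN list marked for M4, in each M4 library (red, LN; blue, HN; the open triangle is HN replicate 4, whose treatment label says 0.5 mM; bars are means of 3 libraries; each vertical axis starts at 0). In all 13 panels the 3 LN libraries lie above the 3 HN libraries, and LN replicate 4 is the lowest LN library for HvNRT2.10 at 8.99 CPM.

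JAZ1 (HORVU5Hr1G062290), a jasmonate-zim-domain protein that represses jasmonate responses, was at 74.4, 70.7 and 37.4 CPM in LN libraries, against 11.1, 12.1 and 11.6 CPM in HN libraries. The LN libraries were 3 to 7 times above the HN libraries. Its log2 FC was 2.21 (SE 0.80), at an unadjusted p of 0.0168 and, by edgeR's quasi-likelihood test, an adjusted p of 0.617.

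HORVU3Hr1G088190 carries the description of a protein for transport and detoxification of heavy metals, and its level was 26.6, 30.2 and 12.0 CPM under LN, against 5.40, 6.14 and 3.07 CPM under HN. In both groups the replicate 4 library was the lowest, and the groups did not overlap. The log2 FC was 2.17 (SE 0.53, unadjusted p = 0.00142, adjusted p = 0.617, edgeR's quasi-likelihood test). DESeq2 called this gene (adjusted p = 0.0176), whereas its adjusted p lay between 0.0176 and 0.826 over the alternatives that keep all M4 libraries or change tool and reached 0.943 without 1 library.

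The phosphate transporter gene HORVU5Hr1G068060 (phosphate transporter 3;2, of the mitochondrial type in Arabidopsis) had 33.4, 50.9 and 46.5 CPM under LN, against 16.2, 18.8 and 16.2 CPM under HN. Here LN replicate 4 stood with LN replicate 3, and LN replicate 1 was the lowest of the LN libraries. The log2 FC was 1.36 (SE 0.43, unadjusted p = 0.00769, adjusted p = 0.617, edgeR).

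Among genes of leaf ageing and stress, the senescence-inducible chloroplast protein HORVU5Hr1G081500, whose relatives act in chlorophyll breakdown, was at 27.2, 39.2 and 33.3 CPM under LN, against 17.2, 14.2 and 21.1 CPM under HN. HORVU1Hr1G017700, a low temperature and salt responsive protein, was at 98.6, 110.0 and 75.3 CPM under LN, against 54.9, 43.4 and 39.0 CPM under HN. HORVU7Hr1G073050 (NAD(P)H dehydrogenase B2, an enzyme of the alternative respiratory chain) had 68.4, 51.1 and 30.0 CPM under LN, against 24.5, 21.4 and 22.8 CPM under HN. The groups were separate for each of these genes, by the smallest margin for NAD(P)H dehydrogenase B2 in replicate 4. Their log2 FCs were 0.74 (SE 0.29), 0.85 (SE 0.31) and 1.0 (SE 0.35) in this order, with an adjusted p of 0.617 each from edgeR's quasi-likelihood test.

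A pair of cytochrome P450 genes, HORVU2Hr1G027470 and HORVU3Hr1G011820, belongs to a large family of oxidases. HORVU2Hr1G027470 had 20.2, 22.9 and 16.4 CPM under LN, against 11.0, 6.05 and 7.25 CPM under HN, and HORVU3Hr1G011820 had 5.92, 4.10 and 5.86 CPM under LN, against 1.73, 1.17 and 1.53 CPM under HN. Both were separate between the groups, at log2 FCs of 1.13 (SE 0.55) and 1.64 (SE 0.84). Neither reached an unadjusted p under 0.05 in the fit on all 18 libraries. The eukaryotic release factor gene HORVU1Hr1G057880, of translation termination, had 4.04, 9.10 and 11.6 CPM under LN, against 1.59, 2.29 and 1.60 CPM under HN. Its log2 FC of 1.32 had a wide error (SE 1.45), so that this difference was smaller than its error in edgeR's quasi-likelihood fit.

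The other 3 of the 13 have no description. HORVU2Hr1G007350 showed the tightest separation, with 29.3, 32.0 and 27.4 CPM under LN, against 16.8, 16.9 and 19.0 CPM under HN. Its log2 FC was 0.73 (SE 0.14, unadjusted p = 0.000161, adjusted p = 0.617, edgeR's quasi-likelihood test), the lowest unadjusted p of the 13. The gene was called by the edgeR likelihood ratio test (adjusted p = 0.0420) and by DESeq2 (adjusted p = 0.0154), and its adjusted p over all alternatives lay between 0.0154 and 0.943. HORVU2Hr1G070880 and HORVU3Hr1G097770 had log2 FCs of 1.57 (SE 0.57) and 0.95 (SE 0.36).

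Pairs of libraries were also compared for these 13 genes. Their groups are separate, so that the direction in any pair is fixed and only the size is given. The median difference of log2(CPM + 0.5), LN minus HN, was 1.06 in replicate 1, 1.18 in replicate 4 and 1.44 between LN replicate 3 and HN replicate 2. Across all 19021 genes the pairs of the same date resembled each other little. The standard deviation (SD) of the log2 difference was 0.432 in replicate 1, 0.410 in replicate 4 and 0.593 between the unpaired libraries. At least 2-fold differences (1 on the log2 scale) were found for 292 genes higher and 394 lower under LN in replicate 1, and for 355 higher and 217 lower in replicate 4. Only 45 genes were higher and 22 lower by this size in both, while 57 were higher in 1 pair and lower in the other. Pearson's r between both sets of differences was 0.101 over 19021 genes, which are not independent replicates. Against the difference of LN replicate 3 and HN replicate 2, r was 0.319 for replicate 1 and 0.080 for replicate 4. By the 2-fold size, replicate 1 shared 108 higher and 71 lower genes with that difference, and 23 were opposite. Replicate 4 shared 128 higher and 13 lower genes with it, and 48 were opposite. HN replicate 4 carries a treatment label of 0.5 mM, and by that label the replicate 4 pair would not compare LN with HN. In all 3 differences together, 27 of the 19021 genes were at least 2-fold higher under LN and 3 at least 2-fold lower. Of the 55 genes named from the study's lists, 7 were among the higher and 1 among the lower. The lists were chosen on the libraries of this study, so that these counts are a description and not independent evidence.

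**Figure D2:**
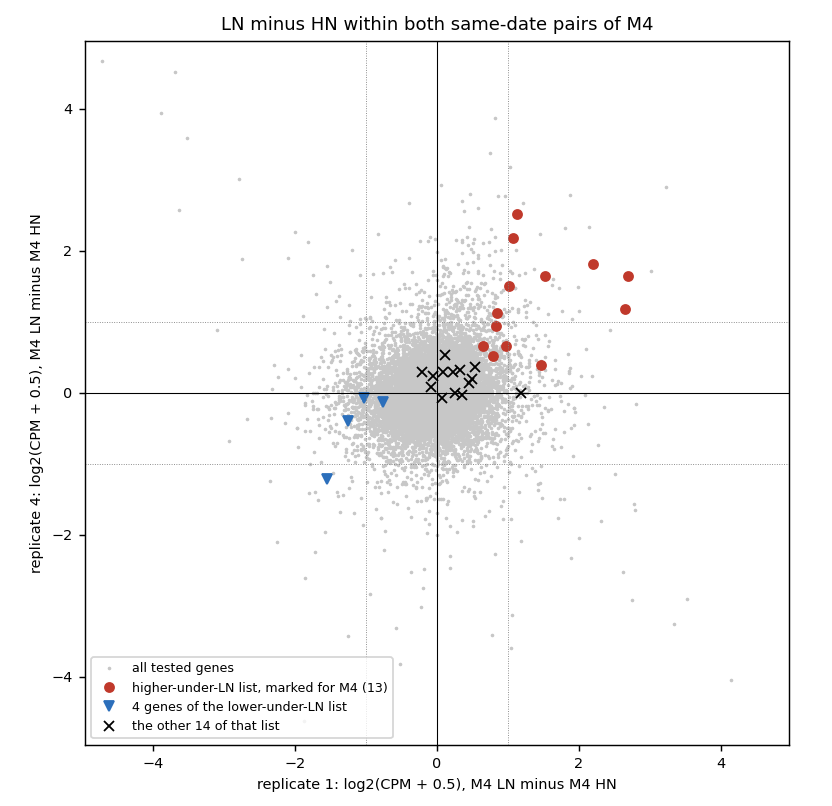
Difference of log2(CPM + 0.5), M4 LN minus M4 HN, in replicate 1 (horizontal axis) and in replicate 4 (vertical axis), with 1 point per tested gene and dotted lines at a 2-fold difference. The cloud of all genes shows little relation (r = 0.101), and the 13 genes marked for M4 lie above 0 on both axes, as the separation of their groups fixes. By the treatment label of HN replicate 4 (0.5 mM), the vertical axis would not compare LN with HN.

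LN replicate 4 lay nearer to HN than the other LN libraries for several genes of the opposite direction. A second list of the study holds 18 genes chosen as lower under LN in at least 2 genotypes. In M4 their log2 FCs ranged from -2.08 to 0.92 with a median of 0.14, with 10 above 0 and 8 below. An unadjusted p under 0.05 was found for 4 of the 18, all lower under LN, where 3.79% of all genes were lower at that threshold, and edgeR's quasi-likelihood test called 0 (lowest adjusted p 0.617). These 4 genes encode a chloride channel, a ureide permease, a protein kinase and phosphoenolpyruvate carboxylase. Without LN replicate 3 none of the 18 genes reached an unadjusted p under 0.05. Without HN replicate 4 the median was 0.19, and 1 gene reached that threshold, lower under LN.

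Ureide permease 1 (HORVU7Hr1G108790), of a family that moves nitrogen-rich ureides, was at 3.62, 1.43 and 17.6 CPM in LN libraries, against 11.5, 19.1 and 41.6 CPM in HN libraries. LN replicates 1 and 3 lay below all HN libraries, and LN replicate 4 lay within their range although it was below HN replicate 4 of the same date. The log2 FC was -1.83 (SE 0.63, unadjusted p = 0.0126, adjusted p = 0.617, edgeR's quasi-likelihood test).

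Phosphoenolpyruvate carboxylase 3 (HORVU7Hr1G080510), of an enzyme family that supplies carbon skeletons for amino acid synthesis, had 272.5, 181.4 and 493.7 CPM under LN, against 556.4, 419.8 and 521.8 CPM under HN. Chloride channel B (HORVU6Hr1G017920), of a family of anion carriers, had 20.4, 15.1 and 36.5 CPM under LN, against 35.1, 37.6 and 40.1 CPM under HN. SOS3-interacting protein 1 (HORVU4Hr1G022630), a kinase of the family that takes part in calcium and nutrient signaling, had 14.2, 5.81 and 38.3 CPM under LN, against 34.4, 33.9 and 50.9 CPM under HN. For each of them LN replicate 4 reached the HN range and the other LN libraries lay below it. The log2 FCs were -0.78 (SE 0.30), -0.68 (SE 0.31) and -1.24 (SE 0.55) in this order.

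The rest of that list holds bHLH transcription factors, carriers of the major facilitator superfamily and a carotenoid hydroxylase. The median log2 FC of all 18 genes was 0.14 in M4, against -1.71 in GP and -2.02 in M5, the genotypes on whose values the list was chosen. The difference of response, M4 minus the mean of GP and M5, was above 0 for 18 of 18 (0.014 to 6.66) and reached an unadjusted p under 0.05 for 13 of 18. Over all genes, 470 (2.47%) reached it with a higher and 394 (2.07%) with a lower response in M4. A single gene of all 19021 (0.00526%) was called, and it is among the 18. Since a gene enters the list by a fall in the other genotypes, these counts partly follow from the choice.

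The called gene was HORVU3Hr1G082580, a membrane carrier of the major facilitator superfamily. It had 14.8, 15.8 and 21.3 CPM under LN in M4, against 10.1, 15.8 and 16.5 CPM under HN. In GP and M5 together it ranged from 8.31 to 28.5 CPM under LN, against 74.5 to 151.8 CPM under HN. The log2 FC was 0.36 in M4, -1.85 in GP and -3.20 in M5, and the response difference of 2.89 (SE 0.32) had an adjusted p of 0.0130 in edgeR's quasi-likelihood test. Both GP replicate 1 libraries hold transcripts of other genotypes, since markers of M4 reached a median of 14.6% of their M4 level in GP HN replicate 1 and markers of M5 a median of 53.8% of their M5 level in GP LN replicate 1. Without both of these libraries the difference was 2.97 and the gene was not called (adjusted p = 0.0727, edgeR). It was not called either without M4 HN replicate 4 (adjusted p = 0.0708), M4 LN replicate 1 (0.0578), M4 LN replicate 4 (0.110), M4 HN replicate 1 (0.113) or M4 HN replicate 2 (0.119), all by edgeR. Without the replicate block 3 genes were called.

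The levels of these genes in M4 were set against those in the other genotypes. For 12 of the 18 every M4 library, LN or HN, lay below every HN library of GP and M5, where 3.20% of all genes did so, and this count was the same without both GP replicate 1 libraries. The range of the M4 HN libraries overlapped that of the HN libraries of GP and M5 for 5 of the 18, where 89.3% of all genes did so. It overlapped that of the LN libraries of GP and M5 for 13 of the 18, where 87.8% of all genes did so. This comparison of levels was chosen after the data were seen, and the list was chosen for its high HN levels in the other genotypes.

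The bHLH gene HORVU3Hr1G108680 had 5.88, 0.667 and 4.08 CPM under LN in M4, against 4.51, 3.59 and 4.18 CPM under HN, and ranged from 2.36 to 19.0 CPM under LN and 95.1 to 312.4 CPM under HN in GP and M5. The bHLH gene HORVU2Hr1G013450 had 3.76, 4.19 and 3.52 CPM under LN in M4, against 3.52, 3.36 and 2.79 CPM under HN, and ranged from 2.78 to 10.8 CPM under LN and from 25.4 to 93.0 CPM under HN in GP and M5. Each M4 library of either gene thus lay far below the HN libraries of the other genotypes. Their response differences were 4.38 (SE 0.73) and 3.60 (SE 0.57), neither called (adjusted p = 0.168 each, edgeR's quasi-likelihood test). OBP3-responsive gene 1 (HORVU3Hr1G059130) had 48, 30.2 and 64.3 CPM under LN in M4, against 38.0, 43.4 and 51.7 CPM under HN, with 34.5 to 68.8 CPM under LN and 164.6 to 586.2 CPM under HN in GP and M5. A second carrier of the major facilitator superfamily, HORVU3Hr1G082460, had 7.81, 12.2 and 8.49 CPM under LN in M4, against 8.12, 5.15 and 7.11 CPM under HN. The response differences of this pair were 3.10 (SE 0.52) and 2.28 (SE 0.46), with adjusted p of 0.168 and 0.432 (edgeR). All 4 differences were called by the edgeR likelihood ratio test and by DESeq2.

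**Figure D3:**
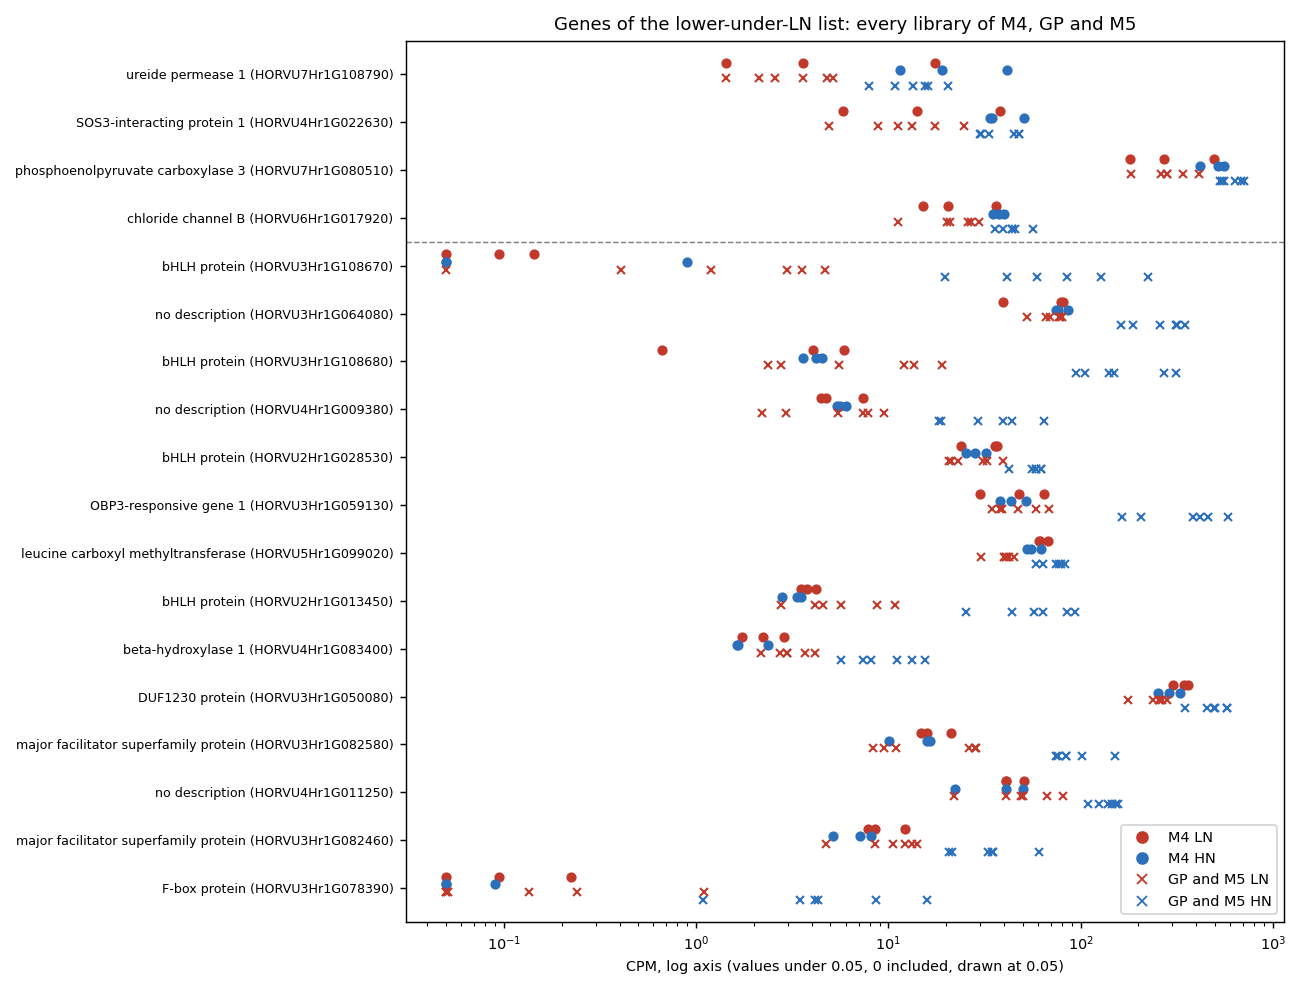
CPM on a log axis of the 18 genes of the lower-under-LN list in every library of M4 (circles) and of GP and M5 (crosses), LN in red and HN in blue, with 1 row per gene. Above the dashed line are the 4 genes with negative log2 FCs in M4 and an unadjusted p under 0.05. For 12 of the 18 genes, all below the line, every M4 library lies left of every HN library of GP and M5.

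RAD-like and iron genes of the first list, marked for GP and M5 and not for M4, overlapped between LN and HN in M4 (6 of 6, where 86.2% of all genes did so). The RAD-like genes encode small MYB-related transcription factors. RAD-like 1 (HORVU1Hr1G089490) had 3.86, 5.77 and 0.503 CPM under LN, against 5.40, 3.14 and 1.95 CPM under HN, and RAD-like 6 (HORVU1Hr1G089500) had 5.69, 5.67 and 0.0559 CPM under LN, against 4.95, 2.24 and 2.23 CPM under HN. LN replicate 4 was the lowest library for both, at under 1 CPM, and the remaining LN libraries lay within or above the HN range. A second RAD-like 1 gene (HORVU1Hr1G089510) had 1.27, 0.524 and 0 CPM under LN, against 1.98, 0.269 and 0.209 CPM under HN, where 3 reads in LN replicate 4 would be 0.168 CPM. The log2 FCs were -0.50, -0.36 and -0.44 in this order. The response differences from GP and M5 were -2.56 (SE 0.69), -2.42 (SE 0.93) and -4.47 (SE 1.32), each with an unadjusted p under 0.05 and none called (adjusted p 0.929 to 1, edgeR's quasi-likelihood test). The list was chosen for higher levels in the other genotypes. The direction in M4 turned without LN replicate 4, to log2 FCs of 0.14 for HORVU1Hr1G089490, 0.50 for HORVU1Hr1G089500 and 0.25 for HORVU1Hr1G089510.

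Iron genes stood higher in M4 under both supplies than in GP and M5 under HN. Ferritin 4 (HORVU5Hr1G047730), which stores iron in plastids, had 126.1, 233.3 and 296.5 CPM under LN, against 100.7, 117.7 and 128.8 CPM under HN. LN replicates 3 and 4 were well above the HN libraries and LN replicate 1 lay within their range. A cytochrome b561/ferric reductase (HORVU6Hr1G060720) had 106.3, 122.8 and 108.4 CPM under LN, against 89.5, 91.4 and 108.5 CPM under HN. An iron-sulfur cluster binding protein (HORVU5Hr1G078960) had 52.5, 96.7 and 82.2 CPM under LN, against 51.9, 55.8 and 63.7 CPM under HN. The log2 FCs were 0.86 (SE 0.43), 0.21 (SE 0.21) and 0.45 (SE 0.33), and none reached an unadjusted p under 0.05. For 3 of 3, every M4 library lay above every HN library of GP and M5, where 3.96% of all genes did so. The range of the M4 HN libraries overlapped that of the LN libraries of GP and M5 for 3 of 3, where 87.8% of all genes did so. In those genotypes the ferritin gene ranged from 62.3 to 154.7 CPM under LN, against 28.7 to 51.6 CPM under HN, and the list was chosen for low HN levels there.

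To place each M4 library on a common scale, 50 genes higher and 50 genes lower under LN were taken from GP and M5 alone, by lowest p, of which 4 and 14 were called there. The mean log2(CPM + 0.5) of the higher genes minus that of the lower genes was -0.22, 0.28 and -0.85 in M4 LN libraries, against -0.56, -0.79 and -0.82 in M4 HN libraries. LN replicates 1 and 3 lay above all HN libraries and LN replicate 4 lay below them. In the libraries that chose these genes it was -0.58 to 0.52 under LN, against -2.93 to -1.59 under HN. All 6 M4 libraries thus stood above the HN libraries of GP and M5, which had set the scale and so lie apart by construction.

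**Figure D4:**
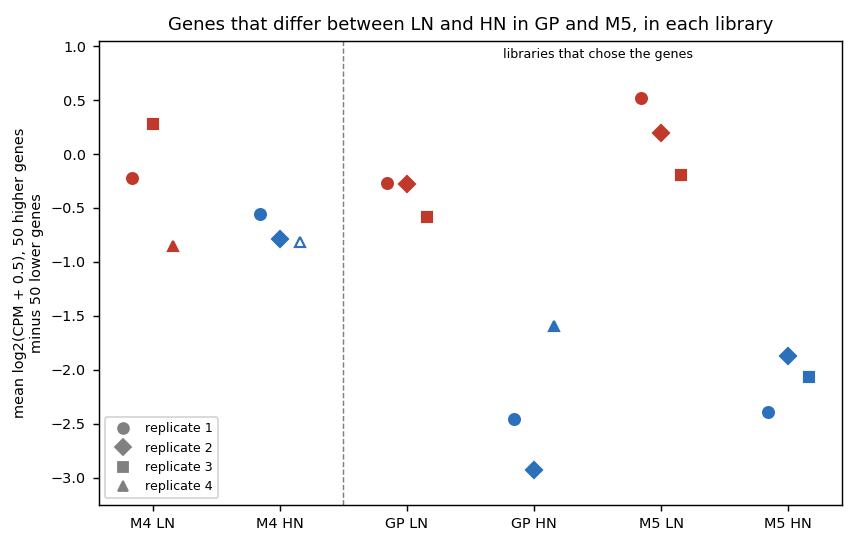
Mean log2(CPM + 0.5) of 50 genes higher minus 50 genes lower under LN, chosen on GP and M5, in each library (red, LN; blue, HN; the open triangle is M4 HN replicate 4). The M4 LN libraries lie at -0.22, 0.28 and -0.85 and the M4 HN libraries at -0.56, -0.79 and -0.82, all above the HN libraries of GP and M5.

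Replicates of M4 under LN varied more than those under HN. The variance of log2(CPM + 0.5) was larger under LN for 65.7% of genes, and the common biological coefficient of variation was 26.0% under LN and 18.1% under HN. With replicates 1 and 4 alone, which share dates between the supplies, the share was 49.4% and the coefficients were 21.5% under LN and 19.6% under HN. LN replicate 3 stood furthest from the other M4 libraries, with r of log2 CPM between 0.958 and 0.971 across genes.

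Lysine genes differed little between the supplies. The list holds 8 genes of synthesis, breakdown and transport that the study names for M4, all of them tested, with a median log2 FC of 0.16 (-0.31 to 0.49). None reached an unadjusted p under 0.05 in the fit on all 18 libraries. The median was -0.046 without LN replicate 4, with 3 of 8 above 0, and 0.22 without HN replicate 4, with 7 of 8 above 0. LKR/SDH (HORVU6Hr1G083050), the bifunctional enzyme that starts lysine breakdown, had 21.3, 37.5 and 76.5 CPM under LN, against 27.2, 24.5 and 23.3 CPM under HN. The HN libraries were alike, and the LN libraries lay below, above and far above them. In the fit with GP and M5 its log2 FC was 0.49 (SE 0.97), and -0.62 without LN replicate 4, the highest M4 library. That fit includes GP LN replicate 3 at 147.8 CPM, against 4.32 to 17.0 CPM in the other GP and M5 libraries. With the 6 M4 libraries alone the log2 FC was 0.85 (unadjusted p = 0.0579, edgeR's quasi-likelihood test). Adding the replicate block to the M4 libraries gave 0.68 (unadjusted p = 0.222, same test). The part of the GP library was not tested. A pair of lysine histidine transporter 1 genes, for amino acid uptake into cells, was separate between the groups, 2 of the 8 genes, where 7.16% of all genes lay higher under LN in this way. HORVU7Hr1G074640 had 35.0, 31.2 and 37.4 CPM under LN, against 25.4, 24.1 and 27.2 CPM under HN, and HORVU7Hr1G074660 had 108.9, 96.7 and 106.1 CPM under LN, against 85.8, 76.1 and 84.6 CPM under HN. The fitted log2 FCs were 0.30 (SE 0.58) and 0.35 (SE 0.44), smaller than their errors, where the fit takes 1 spread per gene over all 18 libraries. With the 6 M4 libraries alone their unadjusted p was 0.0104 and 0.0232, and edgeR's quasi-likelihood test called neither (adjusted p 0.605 and 0.632). The genes of synthesis (an aspartate kinase and 3 dihydrodipicolinate reductases) had log2 FCs of -0.31 to 0.07.

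Among genes of branched-chain amino acid (BCAA) metabolism, 7 of 10 had a log2 FC below 0, where 51.6% of all genes did, and none was called. The sign of 1 of the 7, HORVU2Hr1G124400, turned in 11 of 21 alternatives. The 10 genes had a median log2 FC of -0.33 (-0.76 to 0.22), with 2 at an unadjusted p under 0.05, both lower, where 3.79% of all genes were. A threonine aldolase gene (HORVU1Hr1G046630), for an enzyme that splits threonine, had 8.60, 6.24 and 9.94 CPM under LN, against 15.1, 12.3 and 12.7 CPM under HN. Its groups were separate, as for 6.69% of all genes in this direction. The log2 FC was -0.76 (SE 0.24, unadjusted p = 0.00838, adjusted p = 0.617, edgeR's quasi-likelihood test). A further threonine aldolase gene, HORVU2Hr1G097910, was separate in the other direction, with 15.8, 16.4 and 16.4 CPM under LN, against 15.7, 14.3 and 12.8 CPM under HN (log2 FC 0.22, SE 0.15). An isopropylmalate dehydrogenase gene (HORVU3Hr1G059060), of leucine synthesis, had 677.2, 589.3 and 931.8 CPM under LN, against 909.8, 894.9 and 1005 CPM under HN. LN replicate 4 lay within the HN range and the other LN libraries below it, at a log2 FC of -0.38 (SE 0.14, unadjusted p = 0.0193, adjusted p = 0.617, edgeR). The median of the 10 genes was -0.16 without HN replicate 4 and 0.018 when this library was grouped by its treatment label.

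Genes outside the lists with a mean of at least 1 CPM in M4, separate groups and an unadjusted p under 0.05 were counted. Of these, 482 were higher and 445 lower under LN. The 2 with the largest fitted differences in each direction have no description in the files or the study's tables. HORVU2Hr1G042350 came first upwards, with 19.1, 7.62 and 4.36 CPM under LN, against 1.93, 2.11 and 0.976 CPM under HN (log2 FC 2.75, SE 0.91). HORVU4Hr1G025180 followed, with 2.02, 4.57 and 1.01 CPM under LN, against 0.545, 0.403 and 0.139 CPM under HN (log2 FC 2.67, SE 1.17). Both genes varied more among LN than among HN libraries. HORVU5Hr1G010870 had 1.55, 0.191 and 3.74 CPM under LN, against 15.2, 11.3 and 6.27 CPM under HN (log2 FC -2.71, SE 1.14). HORVU5Hr1G010950 had 3.10, 0.191 and 3.35 CPM under LN, against 17.9, 11.7 and 8.64 CPM under HN (log2 FC -2.63, SE 1.08). LN replicate 3 was the lowest library for both. None of these 4 was called (adjusted p 0.617 to 0.634, edgeR's quasi-likelihood test).

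The place of the library with conflicting labels, HN replicate 4, depended on the genes. It lay below every LN library for the 13 genes marked for M4, which were chosen with it counted as HN, so that this place is no evidence on its label. Of the 18 genes of the second list, it lay within the range of the LN libraries for 11, above it for 4 and below it for 3. For 6 of 6 RAD-like and iron genes it lay within that range. Of the 8 lysine genes it lay within the range for 2, above it for 4 and below it for 2. For the 10 BCAA genes these counts were 4, 5 and 1. The shares over all genes were not computed, so that these counts say nothing on the label. On the scale taken from GP and M5 it stood at -0.82, between LN replicate 4 at -0.85 and HN replicate 2 at -0.79. Without it, edgeR's quasi-likelihood test again called 0 genes, with 1555 at an unadjusted p under 0.05 (740 higher and 815 lower), and the 13 genes had a median log2 FC of 1.10, 13 of 13 above 0 and 7 at an unadjusted p under 0.05. With the library grouped as LN by its treatment label, 0 genes were called, 1519 had an unadjusted p under 0.05, and the 13 genes had a median of 0.99, 13 of 13 above 0 and 3 at an unadjusted p under 0.05. Which of the 2 labels is right was not tested.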

How the data were processed

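Leaf RNA was sequenced as stranded single reads. The authors used Trimmomatic 0.36 for trimming, sortMeRNA 2.1 to filter out rRNA, and STAR 2.7.3a for mapping and for counting on the Morex annotation IBSC_v2. The deposited tables hold unnormalized whole-number read counts of 43050 genes. Reverse-strand counts were used, and forward-strand reads came to 5.72 to 6.17% of both strands in M4. The 4 summary classes stayed out. Reads mapping to several places (15.7 to 16.6% of an M4 library) counted for no gene, so that near-identical copies are uncertain.

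All 18 libraries entered 1 model in edgeR 4.0.16 (R 4.3.3), restricted to genes that passed 1 CPM in 3 or more libraries, with TMM scaling, groups and replicate number as terms, the quasi-likelihood test and Benjamini-Hochberg adjusted p under 0.05. Dividing the absolute log2 FC by the root of the F statistic gave the SE. Replicate number is a block because the study's methods use it and the labels hold a single harvest date for each number. Deviations from group means correlated at 0.350 in replicate 1 and -0.014 in replicate 4, and at -0.292 to 0.231 between different numbers. M4 libraries differed beyond sampling noise (chi-square per degree of freedom at least 14.0). Nothing in the labels says whether plants of 1 date shared a pot.

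The members and lists were chosen with earlier results of these data known. Named are the 55 genes the study names by identifier, some given as ranges, and the 2 largest differences in each direction among separate genes at 1 CPM or more with an unadjusted p under 0.05. Of the identifiers, 0 matched the reference table in hand, so no sequence is shown. Alternatives were no block, a harvest season block, the likelihood ratio test, DESeq2 1.42.0, voom of limma 3.58.1, RLE and upper quartile scaling, other low-count filters, either strand, M4 libraries alone, and libraries left out or regrouped.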

Additional observations from a re-analysis of the deposited data

Results flagged for a closer look

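HORVU3Hr1G082580, a carrier of the major facilitator superfamily, was called for a different response to nitrate in M4 than in GP and M5 in the fit on all 18 libraries. The M4 response exceeded the mean GP and M5 response by 2.89 on the log2 scale (SE 0.32, adjusted p = 0.0130, edgeR's quasi-likelihood test). The call was lost in 5 of 6 fits that left out 1 M4 library (adjusted p 0.0578 to 0.119, edgeR) and without both GP replicate 1 libraries, which hold transcripts of other genotypes (adjusted p = 0.0727, edgeR). It was made in 13 of 19 alternatives, most of which use the same libraries, and the difference ranged from 2.69 to 3.09 over the 19.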

How the results depend on the processing

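For LN against HN in M4, the likelihood ratio test called 6 genes, DESeq2 21 and the likelihood ratio test without HN replicate 4 called 9, while all other alternatives called 0. Leaving out single M4 libraries gave 0 genes called and 848 to 2359 at an unadjusted p under 0.05. For the response of M4 against GP and M5, the likelihood ratio test called 20 genes, DESeq2 26, the likelihood ratio test without HN replicate 4 called 19, counts on either strand gave 2 and the fit without both GP replicate 1 libraries 0. Leaving out single M4 libraries gave 0 to 2 genes called (2 without LN replicate 3) and 512 (without HN replicate 2) to 1425 (without LN replicate 3) at an unadjusted p under 0.05.

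Without the replicate block, 0 genes were called for LN against HN and 1770 had an unadjusted p under 0.05, and for the response difference these counts were 3 and 865. With only the M4 libraries and the replicate block, which leaves 1 residual degree of freedom, 0 genes were called.

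The log2 FC of RAD-like 6 (HORVU1Hr1G089500) turned to 0.28 without the replicate block, 0.24 with the season block and 0.30 with M4 libraries alone. That of HORVU3Hr1G108680 turned to 0.18 with M4 libraries alone and the replicate block, 0.16 with HN replicate 4 grouped as LN and 0.014 without HN replicate 4 in the likelihood ratio test. Leaving out single M4 libraries turned the sign of the log2 FC for 18 of the 55 genes of the lists, 5 lysine genes among them. For the 7 of these whose values are given, the log2 FC then lay between -1.34 and 1.01 for HORVU1Hr1G089510, -0.91 and 0.14 for HORVU1Hr1G089490, -1.23 and 0.50 for HORVU1Hr1G089500, -0.21 and 0.40 for HORVU2Hr1G013450, -0.42 and 0.44 for HORVU3Hr1G059130, -0.75 and 0.41 for HORVU3Hr1G108680, and -0.62 and 0.90 for HORVU6Hr1G083050. The causes were not tested.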

Other observations

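The total read numbers of 7 of the 18 libraries, M4 LN replicate 1 among them, ended in the same 4 digits and differed from each other by exact multiples of 50000 reads, whereas no other pair of libraries shared its last 4 digits. This was noticed after the data were seen, and its part in the levels was not tested.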
